A study of Mus musculus with 24 samples.

Results

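In group 3 innate lymphoid cells (ILC3s) of the mouse small intestine, 737 genomic regions carried a peak of CFP1 in all 6 libraries of the Cxxc1flox/flox genotype (WT) and in none of 4 libraries of mice that carry a Cre driver on the same flox/flox background (KO). They were taken from 11791 regions, made by joining the overlapping CFP1 peaks of the 6 WT libraries on the 19 autosomes and the X chromosome, of which 2331 had a peak in all 6 WT libraries. The 737 regions were thus 31.6% of the regions shared by the WT libraries and 6.25% of all WT regions. The 4 KO libraries of the rule were both CCR6+ replicates, NKp46+ replicate 1 and DN replicate 1. The other 2 KO libraries, NKp46+ replicate 2 and DN replicate 2, took no part in the choice, and 686 of the 737 regions (93.1%) had a CFP1 peak in at least 1 of them. The working name of the set, regions lost in the KO, therefore did not hold in those 2 libraries. The library labelled KO DN replicate 2 had more CFP1 peaks (8881) than any WT library. In CFP1 peaks these 2 libraries go against their KO label, and whether the labels are right was not tested. Every count or value of theirs below, the 51 regions without any KO peak included, is that of a library labelled KO. Below, the 737 regions are called the regions of the 4-library rule.

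The series profiled chromatin by CUT&Tag, in which an antibody held on intact chromatin directs a transposase to cut nearby DNA. ILC3s sorted from the small intestinal lamina propria were divided into CCR6+, NKp46+ and DN cells (the labels' names), and each of the 3 subsets of each genotype gave 2 libraries with a CFP1 antibody and 2 with an H3K4me3 antibody, 24 in all. Both genotypes carry loxP-flanked Cxxc1 alleles, and only the KO is labelled with a Cre, so the WT controls carry none by their label. Mice of both genotypes are labelled 6 to 8 weeks old, whereas a protocol text speaks of aged and young animals and of culture medium, and 100000 cells are stated per library. Whether replicates came from separate mice or pools of mice is not said in the labels, so p-values measure the spread between these libraries, which may be technical. The deletion itself cannot be read from peak lists, and no value of the Cxxc1 transcript or of the CFP1 protein entered this work.

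CFP1, the product of Cxxc1, is the subunit of the SETD1A and SETD1B complexes that binds unmethylated CpG dinucleotides through its CXXC zinc finger. It also reads methylated lysine 4 of histone H3, and the SETD1 enzymes place the trimethyl mark H3K4me3 at the starts of active genes, most of which lie in CpG islands. ILC3s respond to the cytokine IL-23 and supply the gut with IL-22.

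The DNA just upstream of a gene start shows the kind of sequence in question. Shown is the upstream DNA of genes at the 3 regions with the highest WT CFP1 rank among those with no CFP1 peak in any of the 6 KO libraries (Zfp959, Atxn7l3b and Agbl3), of a gene of the cytosolic ribosomal proteins, the list with the largest share in the set (Rps23), and, for contrast, of genes at the 3 highest-ranked regions that had a CFP1 peak in all 6 WT libraries and in all 4 KO libraries of the rule (H2az2, Azi2 and Gbe1). Each run holds the 250 bases before the gene start on the strand of the gene, from RefSeq promoters of GRCm38.p6, with CpG in capitals. The runs are not the CFP1 regions themselves. That of Atxn7l3b, for one, lies mostly outside its region (chr10:112928131-112929076). The positions are chr17:55891843-55892092 (plus strand) for Zfp959, chr10:112929027-112929276 (minus) for Atxn7l3b, chr6:34780182-34780431 (plus) for Agbl3, chr13:90922872-90923121 (plus) for Rps23, chr11:6444444-6444693 (minus) for H2az2, chr9:118040272-118040521 (plus) for Azi2 and chr16:70313699-70313948 (plus) for Gbe1.
Zfp959: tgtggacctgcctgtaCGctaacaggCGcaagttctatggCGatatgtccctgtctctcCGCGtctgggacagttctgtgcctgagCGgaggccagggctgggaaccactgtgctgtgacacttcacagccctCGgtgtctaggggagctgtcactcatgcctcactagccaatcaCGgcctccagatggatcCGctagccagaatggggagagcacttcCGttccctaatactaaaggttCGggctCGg
Atxn7l3b: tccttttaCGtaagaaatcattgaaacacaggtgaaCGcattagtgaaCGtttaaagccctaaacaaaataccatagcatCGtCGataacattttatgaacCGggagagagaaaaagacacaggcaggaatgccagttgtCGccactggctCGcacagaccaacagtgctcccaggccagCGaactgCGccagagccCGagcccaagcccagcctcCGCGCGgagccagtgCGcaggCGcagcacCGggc
Agbl3: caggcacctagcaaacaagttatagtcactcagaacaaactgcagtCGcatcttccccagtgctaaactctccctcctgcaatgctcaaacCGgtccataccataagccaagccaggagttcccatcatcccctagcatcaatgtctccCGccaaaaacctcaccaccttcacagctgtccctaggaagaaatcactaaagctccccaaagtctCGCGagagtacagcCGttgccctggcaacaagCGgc
Rps23: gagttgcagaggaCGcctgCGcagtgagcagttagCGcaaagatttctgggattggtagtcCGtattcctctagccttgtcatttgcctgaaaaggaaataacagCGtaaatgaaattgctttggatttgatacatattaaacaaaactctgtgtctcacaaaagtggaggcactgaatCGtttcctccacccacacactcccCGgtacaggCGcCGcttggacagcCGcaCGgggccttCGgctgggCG
H2az2: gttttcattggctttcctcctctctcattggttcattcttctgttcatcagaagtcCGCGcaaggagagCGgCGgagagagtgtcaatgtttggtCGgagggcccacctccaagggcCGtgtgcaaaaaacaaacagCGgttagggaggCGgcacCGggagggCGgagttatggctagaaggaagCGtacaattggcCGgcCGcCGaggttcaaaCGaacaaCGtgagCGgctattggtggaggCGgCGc
Azi2: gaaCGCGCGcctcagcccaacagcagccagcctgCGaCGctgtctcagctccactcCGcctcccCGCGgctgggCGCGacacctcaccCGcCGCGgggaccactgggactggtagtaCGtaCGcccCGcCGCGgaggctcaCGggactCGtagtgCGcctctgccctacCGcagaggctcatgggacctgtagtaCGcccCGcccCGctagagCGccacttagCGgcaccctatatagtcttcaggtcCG
Gbe1: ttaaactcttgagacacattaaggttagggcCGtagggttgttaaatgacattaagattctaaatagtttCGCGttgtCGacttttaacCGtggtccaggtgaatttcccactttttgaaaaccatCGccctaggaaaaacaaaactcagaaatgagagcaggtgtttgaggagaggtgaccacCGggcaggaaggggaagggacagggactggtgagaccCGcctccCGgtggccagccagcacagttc
The Zfp959 stretch holds 12 CpG, that of Atxn7l3b 17, that of Agbl3 7 and that of Rps23 13. The stretches upstream of the genes at regions in all 4 KO lists hold 19 CpG at H2az2, 28 at Azi2 and 9 at Gbe1, so the ranges overlap among the genes shown. The letters CCAAT, read on either strand, occur 4 times at H2az2, 1 time each at Zfp959 and Rps23 and at none of the other 4 genes shown.

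The regions of the 4-library rule lay in the middle of the WT CFP1 lists in strength. The authors' fold enrichment of the CFP1 peak at the region was ranked within each WT list, and the median of the 6 percentiles had a median of 58.1 over the 737 regions (quartiles 43.3 and 72.6). The same value was 66.8 for the 661 regions found in 1 of the 4 KO lists, 76.1 for the 465 in 2, 84.7 for the 277 in 3 and 90.4 for the 191 in all 4. Median fold enrichments followed that order, at 6.15, 6.56, 7.26, 8.15 and 8.98. The regions of the rule were also shorter, with a median merged length of 949 b against 1127 b for those in all 4 KO lists. These values describe what the rule selected and are not tests.

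The length of the KO lists moved with the rule. The 4 KO lists that the rule used held 714 to 1312 CFP1 peaks, the 2 others held 4891 (NKp46+ replicate 2) and 8881 (DN replicate 2), and the 6 WT lists held 4574 to 7983. Sequencing depth is unknown for peak lists, and its part in the list lengths was not tested. Because each library was made from many cells, fewer cells with CFP1 on a region and less CFP1 per cell cannot be told apart.

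In the library labelled KO NKp46+ replicate 2, 474 of the 737 regions (64.3%) had a CFP1 peak, against a share of 80.1% over all 2331 regions shared by the WT libraries. In the library labelled KO DN replicate 2 the count was 670 (90.9%), against 95.8% over the same 2331. In both libraries together 458 of the 737 regions had a peak, and 51 (6.92%) had one in neither. Regions without a peak in either library were 2.87% of those in 1 of the 4 KO lists, 0.645% of those in 2 and 0% of those in 3 or 4. In both libraries the share of the set was below that of all shared regions and covered most of the set. With 1 library each, these values have no replicate check and the difference in shares was not tested. The median fold enrichment of the peaks that were listed there was 5.01 in the library labelled KO NKp46+ replicate 2 and 5.63 in that labelled KO DN replicate 2, against medians of 5.40 to 6.63 over the 6 WT libraries. These sets differ: the KO medians cover the 474 and 670 listed regions alone, and each WT median all 737.

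**Figure D1:**
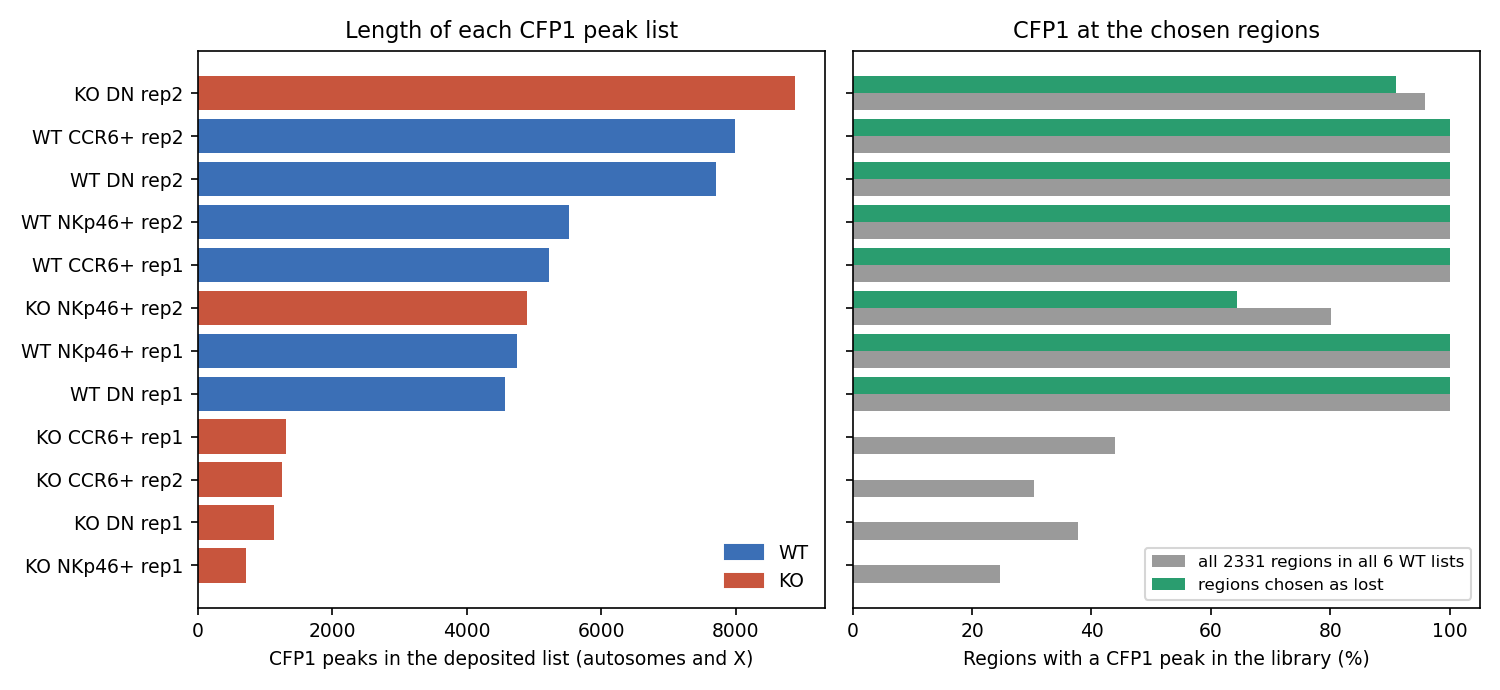
Left, the number of CFP1 peaks in each of the 12 deposited lists, WT in blue and KO in red. Right, the percentage of the 2331 regions shared by all WT lists (grey) and of the 737 chosen regions (green) with a CFP1 peak in that library; the 4 shortest lists are those the rule required to be empty, and the 2 longest KO lists hold a peak at 64.3% and 90.9% of the chosen regions.

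Region by region, the fold enrichment of the peaks listed in these 2 libraries lay inside the WT range more often than outside it. Where it lay outside, it was below all 6 WT values far more often than above them. Regions without a listed peak have no value and are left out here. The WT values compared come from the lists in which the rule required a peak, so the counts below are not independent of that choice. The same shares over all 2331 shared regions were not computed, so whether the counts are particular to the set was not tested. In the library labelled KO NKp46+ replicate 2, 208 of the 474 listed regions (43.9%) were below all 6 WT values, 256 (54.0%) inside their range and 10 (2.11%) above it. In that labelled KO DN replicate 2, 167 of 670 (24.9%) were below, 458 (68.4%) inside and 45 (6.72%) above. The regions named next were chosen for high WT signal, which favours WT values above the KO values. At Klhl9, an adaptor of a CUL3 ubiquitin ligase, which had the highest WT CFP1 percentile of the set (chr4:88721879-88722558), CFP1 fold enrichment was 10.01 and 12.3 in replicates 1 and 2 of WT CCR6+ cells, 12.6 and 10.5 in those of NKp46+ cells, and 11.7 and 13.0 in those of DN cells. The same region was listed at 7.66 in the library labelled KO NKp46+ replicate 2 and at 9.84 in that labelled KO DN replicate 2, both below the 6 WT values. At Uhrf2, by contrast, both KO values (5.92 and 5.75) lay inside the WT range of 4.79 to 5.93, and at the shared start of Clhc1 and Rps27a they were 7.58 and 10.7, the first inside the WT range and the second above its highest value of 8.34. At Dguok, the mitochondrial deoxyguanosine kinase (chr6:83506475-83507089), the WT values ran from 10.8 to 13.1 and the listed KO values were 7.40 and 10.2. At Dnm1l, the GTPase that divides mitochondria (chr16:16358597-16359072), the WT values ran from 10.1 to 14.8, and 1 list, that labelled KO NKp46+ replicate 2, held it at 10.6. The remaining regions among the 10 with the highest WT percentile lay at Zfp959, D5Ertd579e, Nol7, Smim13, Taco1, Slc35b1 and Sem1, with median WT folds of 9.85 to 10.8.

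The 51 regions with no CFP1 peak in any of the 6 KO libraries are the subset for which the working name holds in every KO list. Depth is unknown, so a missing peak does not show that CFP1 was absent. The strongest in WT lay at Zfp959, a zinc finger gene (chr17:55891755-55892462), with WT folds of 11.5 and 7.94 for the CCR6+ replicates, 12.3 and 7.42 for the NKp46+ pair, and 12.1 and 9.99 for DN. Replicate 1 was higher than replicate 2 in each subset there. At Atxn7l3b (chr10:112928131-112929076) the WT folds ran from 7.51 to 12.3, and at Agbl3, a cytosolic carboxypeptidase (chr6:34780282-34780949), from 6.79 to 14.0. At Mios, which encodes a GATOR2 component in the relay of amino acid supply to mTORC1 (chr6:8208889-8209770), the WT folds ran from 6.00 to 9.43. Fkbp3, Cep85l, the splicing factor gene Srsf11, the phosphatase gene Ppp5c, Cmpk1 and Tmem33 followed, with median WT folds of 7.47 to 8.22.

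At the lower edge of the set lay Atp5d, a subunit of ATP synthase (WT folds of 3.20 to 4.64), and Pfn1, the actin-binding protein profilin (3.10 to 6.55), followed by Dbp, Spred2 and Arpc5l with median WT folds of 3.72 to 3.804. Just outside the rule were 656 regions with a peak in 5 of the 6 WT lists and no KO list of the rule. Those named with the highest WT CFP1 percentiles were Ccdc59, Crls1, Tomm70a, Zfp212 and Sestd1, with median WT folds of 8.58 to 10.6. On the KO side were 661 regions with a peak in all 6 WT lists and 1 KO list. Those named with the lowest percentiles were H2-D1, Mnt, Pim1, Psmb8 and Fadd, with median WT folds of 3.75 to 4.23. These genes come from opposite ends of their groups and do not show typical values. Over whole groups the median WT fold was 5.58 for the 656 regions, 6.15 for the set and 6.56 for the 661.

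The regions of the 4-library rule were gene starts. A protein-coding gene started within 1000 b of 679 of them (92.1%), against 55.6% of all WT CFP1 regions and 96.3% of the 191 regions in all 4 KO lists. The start lay inside the region at 620 (84.1%), only a noncoding gene started within 1000 b of 19, and no annotated start lay near 39 (5.29%). In all, 778 coding genes were assigned. For genes without an entry in the promoter table, such as Rpl30, Nbn and Dgat1, either end of the gene was accepted as a start, so some of these may be gene ends. Starts of 2 coding genes on opposite strands stood at 72 regions (9.77%), between the share over all WT CFP1 regions (5.78%) and that of the regions in 1 to 3 of the KO lists (14.6%) or in all 4 (16.8%). On the X chromosome lay 12 regions (1.63%), against 2.43% of all WT CFP1 regions.

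The CFP1 regions of the set lay mostly downstream of the gene start, as did CFP1 regions at large. Over the 506 regions with a coding start of known strand and no start on the other strand, the centre of the region lay a median of 122 b downstream of the start, and at 68.0% of them it lay downstream. The median was 32.8 b for the 912 such regions in 1 to 3 KO lists and 5.75 b for the 134 in all 4. It was 103 b, with 65.0% downstream, for the 3216 regions in fewer than 6 WT lists. Over all WT CFP1 regions it was 86.5 b, with 63.2% downstream. The smaller offsets were thus those of the classes with a peak in 1 to 3 or all 4 of the rule's KO lists. Because the rule's regions were weaker in WT, the comparison was repeated, after seeing these values, over regions with a WT CFP1 percentile of 50 to 75. There the median offset was 138 b over 214 regions of the set and -13.5 b over 371 regions in 1 to 3 KO lists, while those in all 4 numbered 20, with a median of -49.2 b. Over the whole classes, at any WT CFP1 percentile, the interquartile ranges of the offset overlapped between all 3. For percentiles of 50 to 75 they were not computed.

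The 300 b promoters (250 before and 50 after the start) of 600 of the set's genes were found in the RefSeq table, and all 600 held at least 1 CpG. Their median was 26 CpG (quartiles 20 and 33), against 26 in promoters of regions in 1 to 3 KO lists, 25 in those in all 4 and 13 over all 17274 coding promoters. Their median GC content was 65.0%, against 56.3% over all coding promoters. CpG number was thus higher at CFP1-bound promoters than at promoters at large, and its median differed by 1 at most between regions with and without a KO peak.

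Motif letters were counted on both strands of the same 300 b. GGGCGG, the core of the GC box bound by Sp and KLF factors, occurred in 75% of the set's promoters, 80.3% of those kept in all 4 KO lists and 46.4% of all coding promoters. CCGGAAGT, an ETS site, occurred in 11.2%, 9.29% and 5.25%, and TATAAA, the TATA box, in 4.67%, 5.46% and 13.4%. Of the 10 motifs counted, CCAAT, the box bound by NF-Y, had the widest difference in share between the set and the regions in all 4 KO lists. It occurred in 208 of the 600 promoters of the set (34.7%), in 44.3% of those in 1 to 3 KO lists, in 56.3% of those in all 4 and in 39.3% of all coding promoters. Over the promoters with a WT CFP1 percentile of 50 to 75 the shares were 36.9% of 263, 44.2% of 491 and 62.5% of 24. GGGCGG and CCGGAAGT hold a CG themselves, so their shares move with CpG content. A match describes the sequence and is not a bound site.

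**Figure D2:**
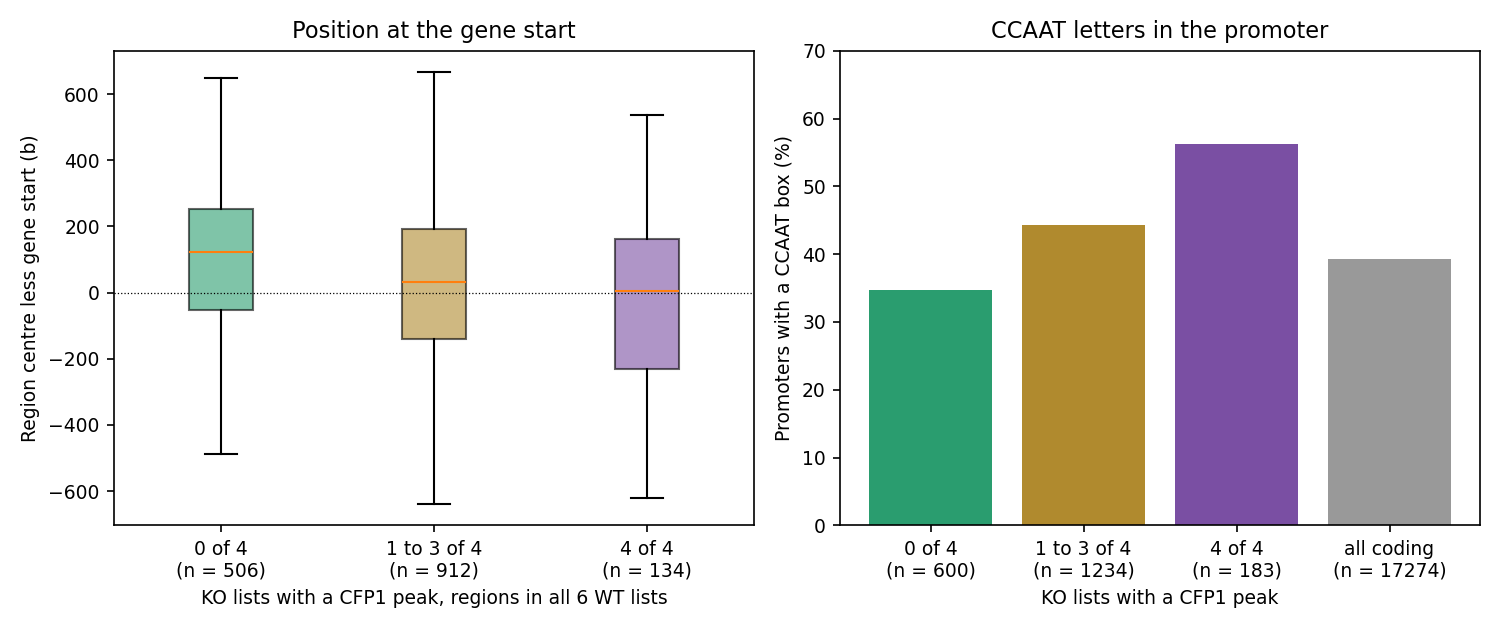
Left, distance of the region centre from the gene start in the direction of transcription (boxes, quartiles with the median; whiskers, the most distant values within 1.5 times the interquartile range; outliers not drawn), for regions in all 6 WT lists grouped by the number of the 4 KO lists with a peak. Right, percentage of 300 b promoters with CCAAT on either strand; the chosen regions have a median offset of 122 b and the lowest CCAAT share, 34.7%.

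The set's genes were described by lists of pathway members. Over all coding genes, 778 of the 2555 with a CFP1 region in all 6 WT lists (30.5%) belonged to the set, which is the share to read the lists against; what the lists count follows from the rule and was not tested. Genes of cytosolic ribosomal proteins stood highest: 12 of 19 (63.2%) were in the set, and none of the 19 was in all 4 KO lists. They were Rpl7, Rpl7a, Rpl22, Rpl27, Rpl30, Rpl34, Rpl37, Rps6, Rps18, Rps20, Rps23 and Rps27a. At Rpl30 (chr15:34442955-34443718) the WT folds ran from 8.42 to 11.6, and the list labelled KO DN replicate 2 held it at 7.36. At Rps23 (chr13:90922845-90923645) the WT folds were 6.04 and 9.36 for CCR6+, 5.46 and 6.65 for NKp46+, and 6.13 and 8.96 for DN, and both long KO lists held it, at 7.58 and 8.04. The KO values at Rps23 fell inside the WT range.

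Subunits of oxidative phosphorylation gave 8 of 21 (38.1%), among them Atp5b, Atp5d, Cox4i1 and Ndufa4, and mitochondrial ribosomal proteins 5 of 15 (33.3%): Mrpl1, Mrpl2, Mrpl30, Mrpl47 and Mrps16. These 2 lists and the zinc finger genes named Zfp, with 12 of 46 (26.1%), were made from symbol patterns after the files were seen. The remaining lists lay near or under the overall share. Splicing factors gave 6 of 28 (21.4%), proteasome and ubiquitin ligase genes 4 of 15 (26.7%; Psmb2, Psmc6, Psmd3 and Ube2n), DNA repair genes 4 of 15 (26.7%; Fancc, Atm, Nbn and Ddb2), cell cycle genes 2 of 11 (18.2%; Cdkn1b, which encodes the inhibitor p27, and the spindle checkpoint gene Mad2l1), autophagy genes 2 of 11 (18.2%; Ulk2 and Atg9a) and nutrient sensing genes of mTORC1 3 of 11 (27.3%; Mtor, Mios and Rps6kb1).

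The lists of H3K4 methylation and of ILC3 identity genes gave small counts. Over all coding genes, 11.8% had a region in all 6 WT lists. The share was 40% of 20 SET1 and MLL complex genes and 42.9% of 7 H3K4 demethylase genes. It was 7.89% of the 38 ILC3 identity genes. Of the SET1 and MLL complex genes, 8 had a region in all 6 WT lists and 2 (25%) belonged to the set, Rbbp5, a core subunit of all these complexes, and Hcfc1. Among these complexes, CFP1 is a subunit of those of SETD1A and SETD1B. At Rbbp5 (chr1:132476829-132477624) the WT CFP1 folds ran from 6.05 to 7.69 and the long KO lists held it at 4.82 and 5.85. None of the 3 H3K4 demethylase genes with a region in all WT lists was in the set. Of 38 ILC3 identity genes 3 had a region in all 6 WT lists and 1 (33.3%) was in the set, Cbfb, the partner of the RUNX factors (chr8:105170704-105171684), with WT folds of 3.87 to 5.54 and KO folds of 4.52 and 4.18. Of FOXO, KLF and quiescence genes 1 of 7 was, Btg1, with WT folds of 4.25 to 5.495. Marker genes of ILC2, NK and ILC1, T, B, myeloid and epithelial cells had no region in all 6 WT lists, and stromal and endothelial markers had 1, which was not in the set.

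By H3K4me3 peaks at gene starts, 32 to 35 of the 38 ILC3 identity genes were marked in the WT libraries and 21 to 31 in the KO. Over all 21631 coding genes 10149 to 11130 were marked in WT and 10198 to 11894 in KO. T cell markers were marked at 4 to 11 of 12 genes in WT and 1 to 11 in KO, B cell markers at 0 to 2 and 0 to 3 of 9, myeloid markers at 0 to 3 and 1 to 6 of 11, and epithelial markers at 1 to 3 and 1 to 5 of 12. ILC2 markers were marked at 2 to 3 and 1 to 2 of 7 genes, NK and ILC1 markers at 3 to 8 and 2 to 8 of 10, and stromal and endothelial markers at 3 to 4 and 2 to 4 of 11. The H3K4me3 lists held 11794 to 18127 peaks. The part of these differences in the H3K4me3 results that follow was not tested.

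H3K4me3 was present at almost every region of the 4-library rule in both genotypes. A peak overlapped 732 of the 737 regions (99.3%) in all 12 H3K4me3 libraries, against 59.6% of all WT CFP1 regions and 99.5% of the regions in all 4 KO lists. Of the other 5, 4 were marked in 11 libraries and 1 in 9. One of them lay at Nyx (chrX:13461505-13463095), marked in 6 WT and 5 KO libraries, and 4 had no coding start nearby. A two-sided Fisher exact test of marked WT against KO libraries could be made at 2053 regions of the series and at 1 of the set. It called 0.0% of the 2053 in either direction after Benjamini-Hochberg adjustment. The smallest two-sided p that Fisher's exact test can give for 6 against 6 libraries is 0.00216, and the 1 region of the set, with 5 marked WT and 4 marked KO libraries, had p = 1.0, so this test could not have called it. At an unadjusted p under 0.05 it gave 12 regions with fewer marked KO libraries over the series (0.585%) and 3 with more (0.146%), and 0 of the set.

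The width of H3K4me3 over the regions of the set did not separate the genotypes. Width is the summed length of the H3K4me3 peaks overlapping a region. The median over the regions was 1271 b and 1456 b for replicates 1 and 2 of WT CCR6+ cells, 1082 b and 1492 b for NKp46+, and 1239 b and 1473 b for DN. In the KO it was 1026 b and 1458 b for CCR6+, 1217 b and 1422 b for NKp46+, and 1064 b and 1470 b for DN. Replicate 2 was the wider in all 6 pairs, and the ranges of the genotypes overlapped, with means of 1336 b ± 165 (SD, n = 6) in WT and 1276 b ± 202 (n = 6) in KO. Over all 7032 regions marked in all 12 libraries the means were 1272 b ± 180 and 1208 b ± 209, so the KO libraries were narrower over all CFP1 regions by about as much.

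After each library was centred on its median log2 width, limma with genotype and subset called 0 of the 732 regions tested lower and 0 higher in KO, where 0.0569% and 0.0% of the 7032 were called (adjusted p under 0.05; two-sided, Benjamini-Hochberg over all 7032). The lowest limma adjusted p in the set was 0.0745. At an unadjusted p under 0.05, 43 regions of the set (5.87%) were lower and 30 (4.10%) higher, where the background was 5.45% and 4.1%. The median difference, KO less WT, was 0.02 on the log2 scale over the set and 0.01 over all regions, with 5th and 95th percentiles of -0.22 and 0.16 in the set. By subset, CCR6+ cells had a median of 0.05, NKp46+ cells -0.04 and DN cells 0.04, and within replicates 0.03 for replicate 1 and 0.01 for replicate 2. The limma F test of the genotype by subset interaction gave 0 adjusted calls in the set and 0 over all regions. At an unadjusted p under 0.05 it gave 14 of the 732 regions of the set and 83 of all 7032. At 4 regions (0.546%) the difference exceeded 1.5-fold, against 0.853% of all regions. The median standard error of a difference was 0.08. In simulated data of the same 7032 regions a change of 0.5 was recovered at 74.5% of changed regions and one of 0.25 at 7.5%. In that setting shifts of the smaller size at single regions were mostly not detectable. The simulated libraries deviated independently, without the replicate effect described below, so these shares hold for that setting and for the fit without the block.

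H3K4me3 rank gave a like picture. Rank is the percentile, over the same 7032 regions, of the highest H3K4me3 fold enrichment at the region, and the median over the set averaged 52.9 ± 1.08 (SD, n = 6) in WT and 53.3 ± 2.29 (n = 6) in KO. The WT libraries ran from 51.8 to 54.9 and the KO libraries from 51.1 to 57.0, so that the WT range lay inside the KO range. limma called 0 of 732 lower and 0 higher, where 0.0142% and 0.0284% of all regions were called, and the lowest limma adjusted p in the set was 0.136. Unadjusted, 19 regions (2.60%) were lower and 33 (4.51%) higher, where the background was 3.27% and 3.63%. The median difference was 0.49 percentile points over the set and 0.02 over all regions, 1.24 in replicate 1 and -0.37 in replicate 2, and its sign was not stable over the libraries and filters used. At 10 regions (1.37%) it exceeded 20 points, against 1.46% of all regions. In simulated data a change of 20 points was recovered at 32.0% of regions and one of 10 points at 0.0%, so in that setting the rank test could see large changes alone. The simulated libraries deviated independently and were fitted without a replicate block, unlike the real ones described below. With the block, smaller differences were called in the real data, such as 12.1 points at Ppm1h.

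The level of the mark took different values in the classes of CFP1 regions, in both genotypes. H3K4me3 over the set was narrower than over the regions in all 4 KO lists, whose library medians averaged 1582 b ± 187 (SD, n = 6) in WT and 1482 b ± 187 in KO. It was higher in rank, since those regions averaged a percentile of 38.5 ± 5.46 in WT and 41.8 ± 7.26 in KO. In each of the 12 libraries the set was narrower and higher in rank than those regions. With WT CFP1 percentiles of 50 to 75, median WT widths were 1348 b for the set and 1500 b for regions in 1 to 3 KO lists, with median WT percentiles of 53.1 and 41.4. These are differences of level, described without a test because the classes were drawn by the CFP1 peaks of the same cells.

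**Figure D3:**
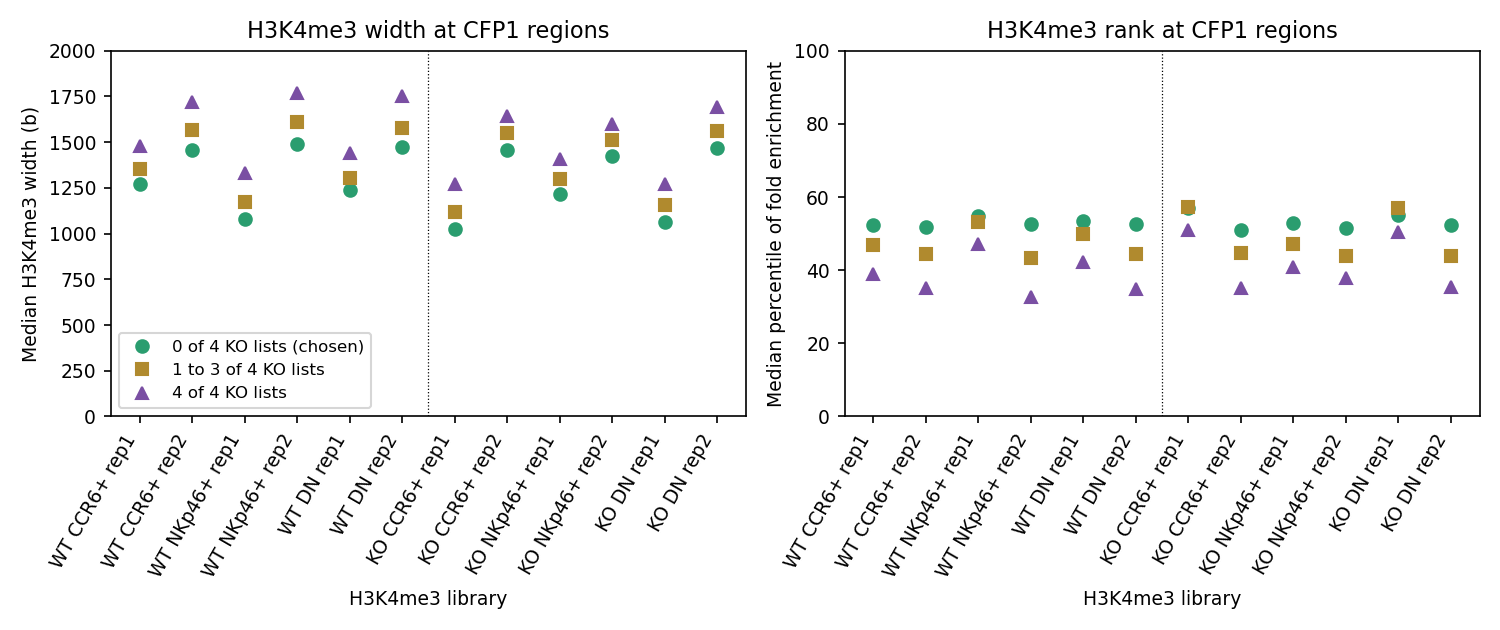
Median H3K4me3 width in bases (left) and median percentile of H3K4me3 fold enrichment (right) in each of the 12 H3K4me3 libraries, WT left of the dotted line and KO right of it, for CFP1 regions of all 6 WT lists with a peak in 0, 1 to 3 or 4 of the 4 KO lists. The chosen regions (circles) are the narrowest class in every library, and their WT and KO values overlap, at 1082 to 1492 b and 1026 to 1470 b.

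The 51 regions with no CFP1 peak in any of the 6 KO libraries were all marked in the 12 libraries. Their median width averaged 1107 b ± 137 (SD, n = 6) in WT and 1102 b ± 177 in KO, and their median rank 58.7 ± 3.18 and 60.7 ± 3.69. None of the 51 was called in width or rank by limma, with lowest adjusted p-values of 0.342 and 0.171, and their median difference in width was 0.02 on the log2 scale. At Mios the width was 805 b and 920 b for WT CCR6+, 734 b and 1174 b for NKp46+, and 869 b and 950 b for DN, against 815 b and 1006 b, 834 b and 986 b, and 800 b and 1046 b in the KO. The KO values at Mios all lay inside the WT range. Agbl3 was the member of these 51 with the largest rank difference: its H3K4me3 percentile was 72.2 to 90.6 in the WT libraries and 47.2 to 69.96 in the KO, without overlap, a difference of -25.5 points ± 4.97 (SE; limma adjusted p = 0.171). With the replicate block described below, its limma adjusted p was 0.0633. Ranked by the authors' −log10 p instead, its difference was -4.00 points (limma adjusted p = 0.837).

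**Figure D4:**
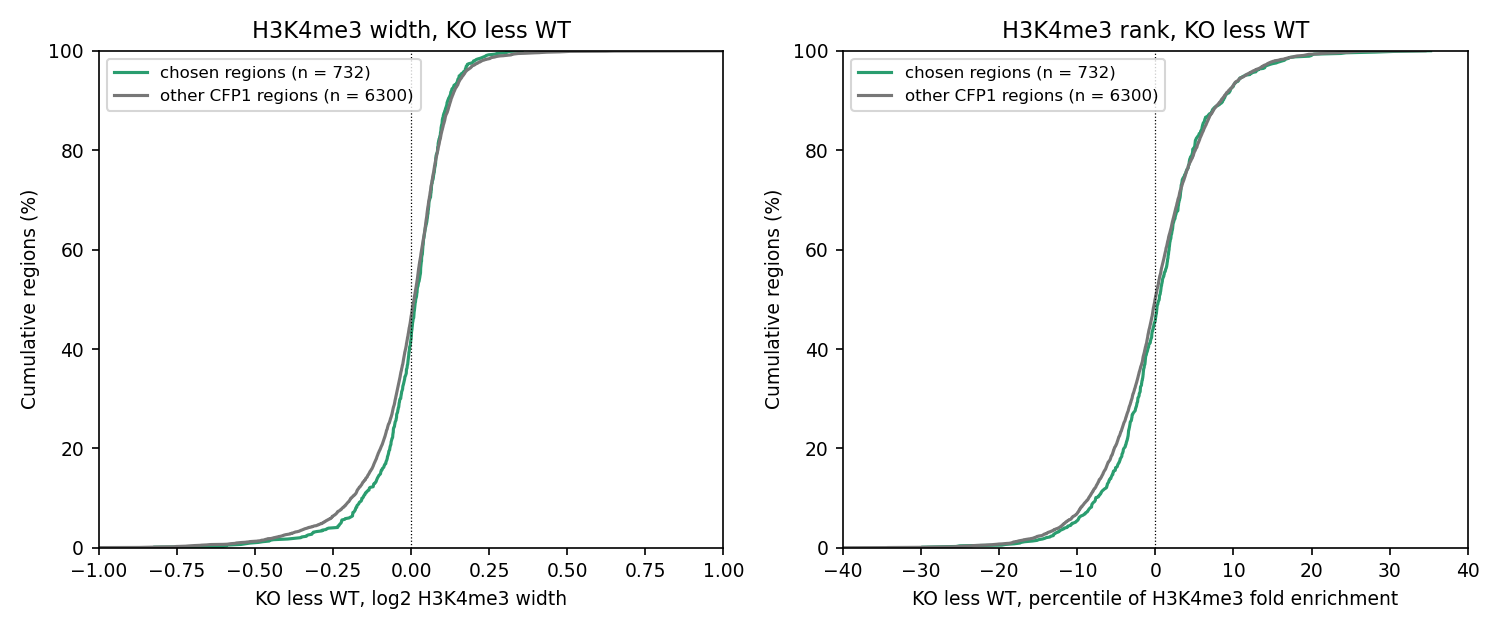
Cumulative percentage of regions by their KO less WT difference in log2 H3K4me3 width (left) and in percentile of H3K4me3 fold enrichment (right), for the 732 chosen regions tested (green) and the 6300 other CFP1 regions tested (grey). Both curves cross 50% near 0, at 0.02 and 0.49 for the chosen regions.

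The single regions with the most negative width differences were Gpr157, Ubp1, Itm2b, Jag1 and Dgat1. At Gpr157, an orphan receptor gene (chr4:150086889-150087935), H3K4me3 spanned 2225 b and 2289 b for WT CCR6+, 1410 b and 2522 b for NKp46+, and 1232 b and 2331 b for DN, and 672 b and 1371 b, 957 b and 1309 b, and 1025 b and 1038 b in the KO. Each KO library was narrower than the WT library of the same subset and replicate, although the ranges overlapped. The difference was -0.82 ± 0.14 (log2, SE; limma adjusted p = 0.0796). At Itm2b, an integral membrane protein gene, the 3 WT replicate 2 libraries had 2886 b, 2986 b and 2895 b while all 9 others, WT and KO, lay between 947 b and 1411 b, so its difference of -0.59 ± 0.24 (adjusted p = 0.479, limma) rested on replicate 2 (-1.17 there and -0.01 in replicate 1). At Jag1, a NOTCH ligand gene, KO CCR6+ and DN replicate 1 had 706 b and 732 b and KO NKp46+ replicate 1 had 1781 b, whereas all 3 KO replicate 2 libraries had 3157 to 3221 b, close to WT.

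The most positive width differences were at Elf2, Zbtb14, H4f16, Nhej1 and Galnt7. At Nhej1, a gene of non-homologous end joining (chr1:75124697-75125258), the WT libraries ran from 670 b to 871 b and the KO libraries from 691 b to 1053 b, a difference of 0.30 ± 0.08 (limma adjusted p = 0.222). At Elf2, an ETS factor gene (chr3:51339832-51341335), WT libraries had 1613 b to 1755 b and KO libraries 1651 b to 2431 b, with a difference of 0.36 ± 0.11 (limma adjusted p = 0.345). Both ranges overlapped. Cbfb, the ILC3 identity gene of the set, had 1291 b to 1548 b in WT and 1475 b to 1652 b in KO (difference 0.17 ± 0.14, limma adjusted p = 0.801).

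**Figure D5:**
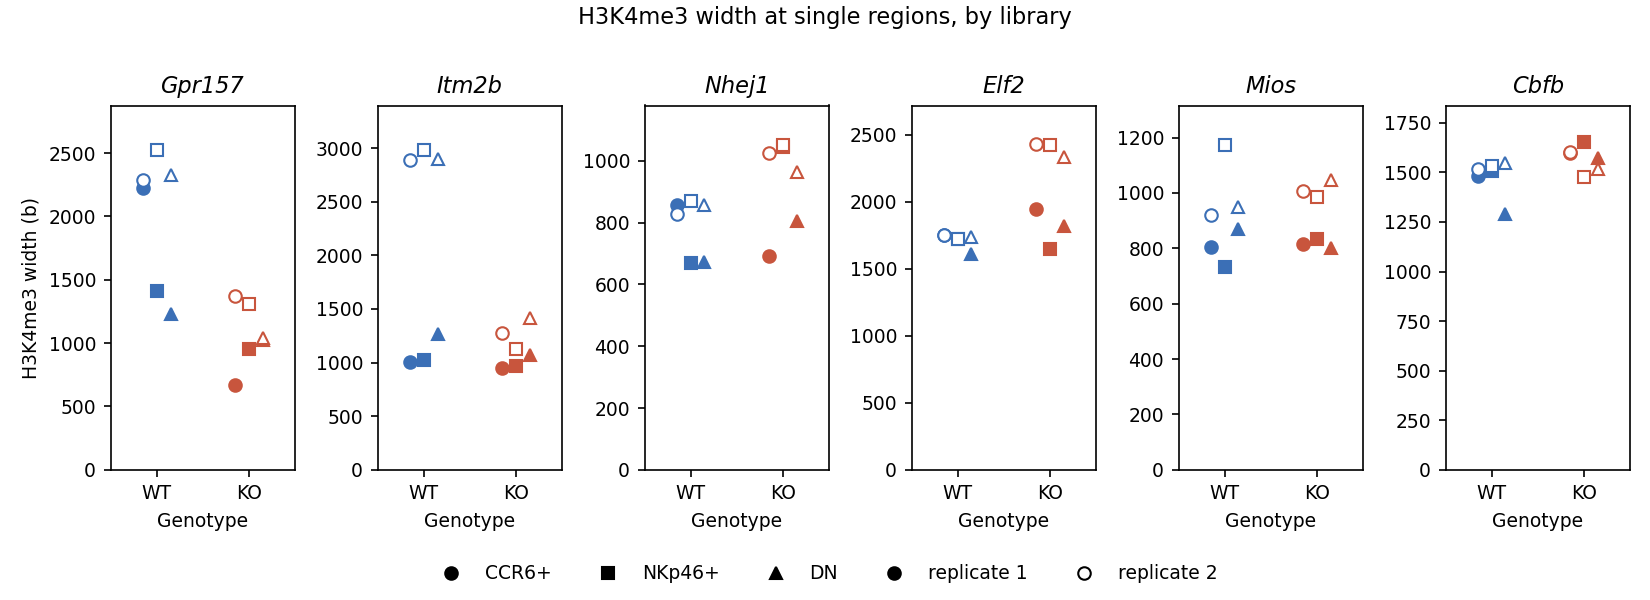
H3K4me3 width in bases at 6 regions of the set in each of the 12 libraries, WT blue and KO red, with the subset as symbol, replicate 1 filled and replicate 2 open; each panel has its own axis from 0. Gpr157 is narrower in every KO library than in its WT partner, Itm2b separates only in replicate 2, and the genotypes overlap at Mios.

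In rank, the most negative differences were at Rpl27, Agbl3, Kdsr, Rbms1 and Dis3l. At Rpl27, a ribosomal protein gene (chr11:101442132-101442977), the H3K4me3 percentile ran from 70.5 to 93.5 in WT and was 40.6, 24.96 and 40.8 in the 3 KO replicate 1 libraries and 67.4, 67.8 and 85.3 in replicate 2. Its difference of -29.8 ± 9.83 (limma adjusted p = 0.538) was -42.0 in replicate 1 and -17.6 in replicate 2. At Kdsr, which encodes a reductase of sphingolipid synthesis, WT percentiles were 48.1 to 64.0 and KO percentiles 28.8 to 43.2, without overlap (difference -19.7 ± 3.52, limma adjusted p = 0.136). The most positive differences were at Itm2b, Gpr157, Phlda1, Diaph1 and Uhrf2. Phlda1 had percentiles of 21.0 to 50.8 in WT and 52.6 to 69.4 in KO (difference 28.1 ± 5.56), and Uhrf2, a reader of modified cytosine, 19.8 to 40.6 and 40.8 to 65.8 (difference 23.7 ± 4.55), each with a limma adjusted p of 0.171. At all 5 of these genes the width difference was negative, from -0.82 to -0.23 on the log2 scale. Within replicates width and rank did not always move together. At Itm2b the width difference in replicate 1 was -0.01, with a rank difference of 29.6 points. At Phlda1 those of replicate 2 were -0.09 and 28.9 points. A relation of width and rank over the set was not tested. When regions were ranked by the authors' −log10 p instead, the rank difference turned negative at 4 of the 5, to -14.5 at Itm2b, -30.4 at Gpr157, -20.8 at Phlda1 and -8.33 at Diaph1, and at the fifth, Uhrf2, it was 0.70 (limma adjusted p = 0.971).

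Same-numbered WT and KO libraries deviated together, and the fit with the replicate number as a block changed calls. With the block, limma called 4 regions of the set lower in width, where 0.398% of all regions were called, and 0 higher, where 0.0995% were. They were Gpr157, Arhgap17, Akap8l and a region without a coding start (chr4:152130921-152132527), each with an adjusted p of 0.0444 in limma with the block. In rank the blocked fit called 2 lower, where 0.256% were called (Mapkapk3, adjusted p = 0.0321, and Kdsr, 0.0454), and 7 higher, where 0.341% were. The 7 were Phlda1 (limma adjusted p = 0.00982 with the block), Golim4 (0.0248), Ppm1h (0.0351), Uhrf2, Senp6 and Kdm3b (0.0453 each) and Eif4h (0.0454). Kdm3b encodes an H3K9 demethylase and Eif4h a translation initiation factor. As shares of the 732 regions tested, the 4 narrower were 0.546%, the 2 lower in rank 0.273% and the 7 higher in rank 0.956%. The last share is above its background of 0.341% and was not tested as a share.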

How the data were processed

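Peak lists of 24 CUT&Tag libraries were analysed, 2 for each of 12 groups. The gene that drives Cre in the KO is not reported here. The authors deposited MACS2 narrowPeak lists, 1 per library, on mm10. MACS2 2.2.7.1, Bowtie2 2.3.5.1, fastp 0.19.7, ChIPseeker 1.28.3 and Picard are listed per the submitters' processing notes; their parameters were not given in the sources used here. Used from each list were 2 scores per peak that the authors deposited, the fold enrichment (a ratio over background, as the authors' caller wrote it) and the −log10 p-value; the −log10 q-value served to read the lists' cutoff, a q near 0.05 in each list. No counts or depths were in these lists, so depth is unknown and precision rests on the number of libraries.

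WT CFP1 peaks that overlapped were merged, and an overlap of 1 b counted as a peak. The members, gene lists and tests were chosen with earlier results of these data known. Genes were assigned where a RefSeq start (GRCm38.p6) lay within 1000 b; where the promoter table held no entry, both gene ends served as possible starts, because the gene table gives no strand. H3K4me3 width (log2, centred per library) and rank were fitted with limma 3.58.1 in R 4.3.3 (genotype and subset, 12 libraries, two-sided, Benjamini-Hochberg over 7032 regions), and presence was tested with Fisher's exact test. The scripts were tested on simulated data. Regions sharing an H3K4me3 peak with another region (12 of the set) are not independent.

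Genes were named by rule: the 10 highest WT CFP1 percentiles, the 5 most extreme width and rank differences in each direction, up to 4 per gene list and 5 on each side of the rule. Those beside the rule had the lowest WT CFP1 percentiles inside it and in 1 KO list, and the highest in 5 WT lists. The 51 regions without a KO peak and the regions called with the replicate block were added after their values were seen. Deviations of same-numbered WT and KO libraries from their group means correlated at 0.20 to 0.43 in width and 0.54 to 0.63 in rank. A limma fit with the replicate number as a block is therefore printed after the results of the fit without it. Its replicate term is shared by all subsets and does not pair WT and KO libraries within a subset. Alternatives changed the peak threshold, the overlap, the width and rank measure, the centring, the filter and the libraries used.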

Additional observations from a re-analysis of the deposited data

Results flagged for a closer look

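Over 46 groups of 6 libraries, 5 values lay apart from the other 5 of their genotype by Dixon's criterion, and chance alone gives about 1 in 20. At Ubp1, H3K4me3 width was 1471 b in KO NKp46+ replicate 1 and 437 to 549 b in the other KO libraries. Jag1 had 1412 b in WT NKp46+ replicate 1 and 3188 to 3238 b in the other WT libraries. Zbtb14 had 836 b in the same WT library and 2098 to 2466 b in the others. Elf2 had 1613 b in WT DN replicate 1 and 1722 to 1755 b in the others. The H3K4me3 percentile of Agbl3 was 72.2 in WT CCR6+ replicate 1 and 85.3 to 90.6 in the other WT libraries.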

How the results depend on the processing

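The number of regions chosen was 470 when peaks needed a fold enrichment of 5 or more, of which 87.7% had a peak in an unused KO library, and 51 when all 6 KO libraries had to lack a peak. Leaving out 1 CFP1 library gave 777 to 990 regions, of which 88.3% to 93.0% had such a peak when the library left out was WT. Leaving out 1 H3K4me3 library gave 0 to 1 regions lower in width (Gpr157, without replicate 1 of WT DN or of KO DN), 0 higher, 0 in either direction in rank and 0 in presence, with median differences of -0.0043 to 0.033 (log2 width) and -0.18 to 1.01 (percentile points), both negative without replicate 1 of KO CCR6+ or of KO DN. The replicate block gave 4 regions lower in width, and 2 lower and 7 higher in rank. Covered bases within 2000 b of the centre gave 2 of 732 lower in width, where 0.221% of the 7246 regions tested were called. Without centring the median width difference was -0.065, against -0.070 over all regions. Ranking by −log10 p gave 20 lower and 7 higher, where 2.86% and 1.37% of all regions were called, and turned the rank difference at Itm2b to -14.5, at Gpr157 to -30.4, at Phlda1 to -20.8 and at Diaph1 to -8.33; the cause was not tested. Kdsr passed the threshold under that ranking (-28.9 points, limma adjusted p = 0.0145). The −log10 p rank difference was -4.00 at Agbl3 and 0.70 at Uhrf2. Requiring an H3K4me3 peak in 10 or more libraries turned the median rank difference to -0.043. The other alternatives kept each count of regions within 1.5 times its value. Unknown depth limits what the absence of a peak can show.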

Other observations

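Other regulators of chromatin and signalling stood among the 51 regions with no CFP1 peak in any KO library; they were picked after the list was seen and carry no test. They include Smarcc1, a core subunit of the BAF remodelling complex, Msl3 of the MSL acetyltransferase complex, Vezf1, a zinc finger factor, Traf6, a ubiquitin ligase of NF-κB signalling, Stim2, a calcium sensor of the endoplasmic reticulum, and the Wnt receptor gene Fzd4.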
